A study of Mus musculus with 9 samples.

Results

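The piRNA pathway genes described here are 31 protein-coding genes of piRNA production and transposon silencing. They were chosen by symbol from a list of pathway members and are 31 of the 55487 rows of the gene tables. RNA-seq was done on ovaries of C57BL/6 mice at postnatal day 8, 50 and 65, with 3 libraries per age and 9 in all. All 9 libraries share the oocyte-specific PIK3CA* gene knock-in (PIK3CA encodes a catalytic subunit of phosphoinositide 3-kinase), so age is what differs between the groups, and no ovary without the knock-in was part of the comparisons. The series describes the tissue as tumor harvested over a time course, and the promoter that confines the knock-in to oocytes was not given in the sources used here. Nothing in the labels ties a library to its own mouse, so the p-values measure the spread between libraries, and that spread may be technical.

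PIWI proteins are germline Argonaute proteins that carry piRNAs, short RNAs made without Dicer from long single-stranded precursors, and cut or silence transposon transcripts that match them. Precursors are cut at mitochondria, loaded onto PIWI proteins on scaffolds of Tudor domain proteins, trimmed and methylated at the 3′ end. In the mouse ovary the pathway is germline, with most of its RNA in oocytes, while mouse oocytes also make Dicer-dependent small RNAs against the same kind of target.

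The 31 genes are given by role: 3 PIWI proteins, 7 helicases and factors of precursor handling, 9 Tudor domain scaffolds, 5 PIWI cofactors and factors of end maturation, 4 nuclear silencing factors and 3 regulators of transcription and translation. Levels are normalized CPM, that is expected counts scaled to the effective library size. Calls rest on edgeR's quasi-likelihood test with the spread pooled over the 3 ages, at an adjusted p (Benjamini-Hochberg over 17747 genes) under 0.05. Of the 31 genes, 27 were tested. Tdrd6, Spocd1, Btbd18 and Nanos2 did not pass the filter on low counts. Of the 27, 12 passed it only through the day 8 libraries, at a level of about 0.617 CPM. They were Piwil1, Piwil4, Mov10l1, Tdrd9, Mael, Gpat2, Tdrd12, Stk31, Asz1, Henmt1, Morc1 and Tex19.1. A gene that passed in this way had to be higher at day 8, so the counts and medians below describe the tested genes and support nothing more. The p-values of these 12 genes against day 8 have the same limit.

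The libraries held 14116908 to 18868831 expected counts each. Day 8 replicate 1 stood apart from the other day 8 libraries, with 10.9% of its counts in ribosomal protein genes against 4.15% and 5.498%. The share was 2.90% to 3.42% at day 50 and 9.23% to 12.1% at day 65. Day 65 replicate 3 held the highest level of 21 of 22 oocyte markers within its age and of 14 of the 31 piRNA genes. For example, the egg coat gene Zp2 had 9.49 CPM there, against 0.249 and 0.327 CPM in the other day 65 libraries. Oocyte RNA was present in the day 8 libraries, with a summed oocyte marker level of 7076 to 7764 CPM. That sum was 179 to 279 CPM at day 50 and 67.2, 65.9 and 183 CPM at day 65. Levels in CPM are relative to the whole library. In a bulk library, fewer oocytes, less RNA per oocyte and more RNA from other cells cannot be told apart.

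Promoter windows are shown first, because 25 of the tested genes were lower at day 50 than at day 8. The windows counted also include genes that were low at day 8, such as Piwil1, and Tdrd5 and Tdrd7, which were not called at that step. RefSeq promoter windows (GRCm38.p6, 250 bases before to 50 after the start site) matched 23 of the 31 genes. Piwil2, Rnf17, Tdrd6, Tex15, Spocd1, Morc1, Pnldc1 and Mybl1 had no entry. The palindromic E-box CACGTG was found in 9 of the 23 windows (39.1%), in 7.24% of 27025 windows of all genes, and in 11.4% of the 9868 windows of all genes with a CpG observed over expected ratio of at least 0.6. The median of that ratio was 0.733 in the 23 windows and 0.389 in all windows. It was at least 0.6 in 14 of the 23 windows and in 36.5% of all windows. The CpG-rich windows are therefore not a like background for all 23, here and for the motifs below. The E-box was in the windows of Piwil1, Mov10l1, Tdrd9, Ddx4, Mael, Pld6, Tdrd1, Stk31 and Fkbp6, and its neighbouring bases are given 5′ to 3′ on the gene's strand, with the E-box in capitals. Where a window held 2 E-boxes (Piwil1, Tdrd9 and Fkbp6), the nearer to the start is given, and the choice to show them was made after the motif counts were seen.
Piwil1, chr5:128736082-128736107, plus strand: cagggcccagCACGTGtccacctcgc
Mov10l1, chr15:88982744-88982763, plus strand: ccttCACGTGctaaccgcca
Tdrd9, chr12:111971454-111971479, plus strand: acgaggctccCACGTGcatgcagggc
Ddx4, chr13:112652324-112652349, minus strand: cgtccgcccgCACGTGcagccgttta
Mael, chr1:166238952-166238977, minus strand: ccaggcctacCACGTGacaatccccg
Pld6, chr11:59787675-59787700, minus strand: ggcgggctggCACGTGttgggcgcgc
Tdrd1, chr19:56826188-56826213, plus strand: gggctgcgcgCACGTGggagtaaact
Stk31, chr6:49395474-49395499, plus strand: gccggccaccCACGTGaccagggctg
Fkbp6, chr5:135350066-135350091, minus strand: gtctatcgatCACGTGccgtttctct
The first base of the E-box lay 11 bases before the start site in Tdrd1, 29 in Ddx4, 33 in Pld6 and 37 in Fkbp6, and 246 bases before it in Mov10l1. It lay 55 bases before the start in Stk31, 95 in Tdrd9, 154 in Piwil1 and 223 in Mael, so its place in the window varied. The other motifs were searched on both strands. The letters TCCCGC of an E2F-type site were in 7 windows (30.4%, against 20.1% of all windows and 43.0% of the CpG-rich ones). The CCAAT box was in 11 windows (47.8%, against 38.0% and 37.0%). The letters AACNGNC of a MYB-type site were in 12 windows (52.2%, against 32.8% and 32.5%). A match of letters is a description and not a bound site.

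The upstream stretches of Tdrd1 and Mael show how different the surroundings of the shared E-box were. They are among the 4 genes with an entry that were highest at day 8, and the other pair of these, Tdrd5 and Ddx4, is not printed because most of the window lies in annotated transcript. Tdrd1 is shown at chr19:56825959-56826208 on the plus strand and Mael at chr1:166238748-166238994 on the minus strand (GRCm38.p6, from RefSeq), with the E-box, the E2F-type letters and the CCAAT box, on either strand, in capitals.
Tdrd1: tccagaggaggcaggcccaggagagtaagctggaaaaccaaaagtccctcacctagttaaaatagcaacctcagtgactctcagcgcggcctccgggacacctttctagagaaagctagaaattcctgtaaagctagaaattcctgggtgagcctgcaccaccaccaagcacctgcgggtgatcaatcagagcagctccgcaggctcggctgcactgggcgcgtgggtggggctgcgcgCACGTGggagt
Mael: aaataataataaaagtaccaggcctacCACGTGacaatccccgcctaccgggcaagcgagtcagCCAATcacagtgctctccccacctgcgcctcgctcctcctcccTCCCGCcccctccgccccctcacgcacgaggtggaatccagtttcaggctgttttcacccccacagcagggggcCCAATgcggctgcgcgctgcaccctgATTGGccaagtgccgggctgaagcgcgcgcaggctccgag
The Tdrd1 stretch held 1 E-box next to the start site and 0 of the other motifs. The Mael stretch held 1 E-box, 1 set of the E2F-type letters, 3 CCAAT boxes and 1 set of the MYB-type letters (not in capitals), and its E-box was the farther from the start.

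At day 8 most of the set was high. A mean above 10 CPM was reached by 20 of the 31 genes at day 8, by 4 at day 50 and by 4 at day 65. The summed level of the 31 genes was 1075, 1143 and 1266 CPM at day 8, 229, 301 and 264 CPM at day 50, and 187, 197 and 191 CPM at day 65. The groups of libraries did not overlap in this sum. Tdrd5, Tex15, Tdrd3 and Tdrd7 were the 4 genes above 10 CPM at both later ages, so most of what was left of the sum came from them.

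**Figure D1:**
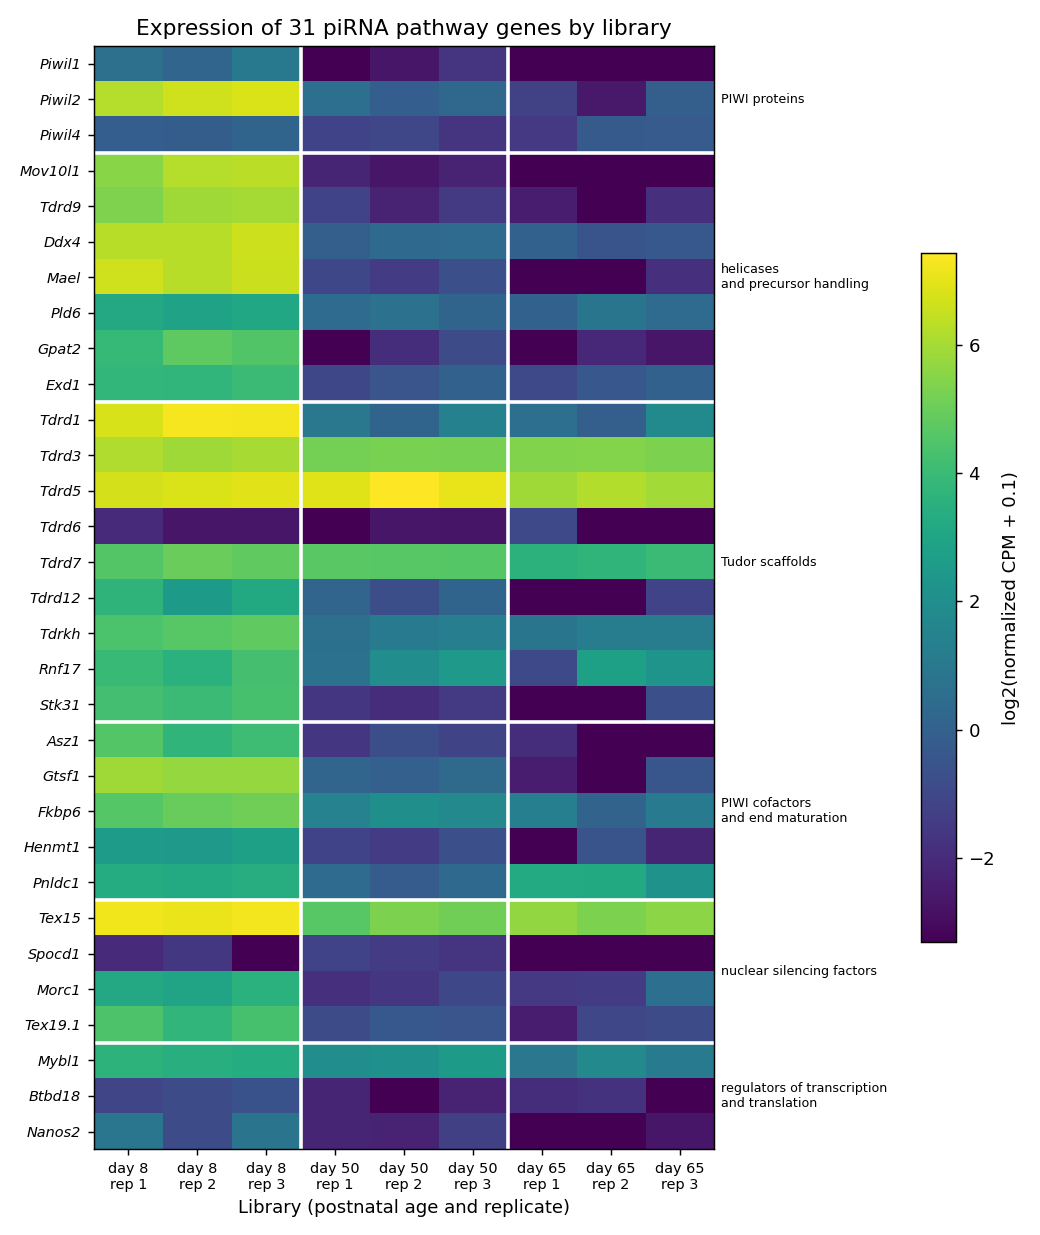
Each row is 1 of the 31 genes and each column 1 library, and colour gives log2(normalized CPM + 0.1). The day 8 columns are bright for 20 genes with a mean above 10 CPM, and from day 50 on the bright rows are Tdrd5, Tex15, Tdrd3 and Tdrd7.

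Between day 8 and day 50 nearly every tested gene of the pathway fell. At day 50 against day 8, 25 of the 27 tested genes were lower and 0 were higher (edgeR), where 40.8% of all tested genes were called, 21.4% lower and 19.5% higher. Of these 27, Tdrd5 and Tdrd7 were not called. DESeq2 called 24 lower and 0 higher, and at an unadjusted edgeR p under 0.05 there were also 0 higher. The median log2 fold change was -4.00 for the 27 genes and -0.04 for all tested genes. The count and the median include the 12 genes that passed the filter only through day 8, whose direction was set by that. The count of genes called lower was 23 without day 8 replicate 1, the library that stood apart. It was also 23 without day 8 replicate 2 or 3, or without day 50 replicate 1 or 2.

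At day 65 against day 50, 8 of the 27 genes were lower and 2 were higher (edgeR), where 55.9% of all tested genes were called, 28.4% lower and 27.5% higher. The share of genes called lower was near that of all genes, and the share called higher was below it. The genes that fell were Mael, Tdrd5, Tdrd7, Tdrd12, Asz1, Gtsf1, Fkbp6 and Mybl1, and those that rose were Pnldc1 and Tex15. The median log2 fold change was -0.81 (-0.61 with genes at 0 counts set to their bound), against -0.06 for all tested genes. The number called lower was 7 without day 65 replicate 3, 5 without day 65 replicate 1 and 4 without day 50 replicate 3. The number called higher was 1 without replicate 3 of any age, or without replicate 1 of day 50 or day 65.

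At day 65 against day 8, 25 of the 27 genes were lower and 0 were higher (edgeR), where 62.3% of all tested genes were called, 32.6% lower and 29.7% higher. Piwil4 and Pnldc1 were the 2 not called. The median log2 fold change was -4.63 (-4.48 with bounds), against -0.05 for all tested genes. It also includes the 12 genes that passed the filter only through day 8. DESeq2 also called 25 lower and 0 higher, and 0 tested genes were higher at an unadjusted edgeR p under 0.05. The number called lower was 24 without any 1 of the day 8 libraries and 24 without day 65 replicate 3. The 3 comparisons share libraries in pairs, so their values are given side by side and are not independent of each other.

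**Figure D2:**
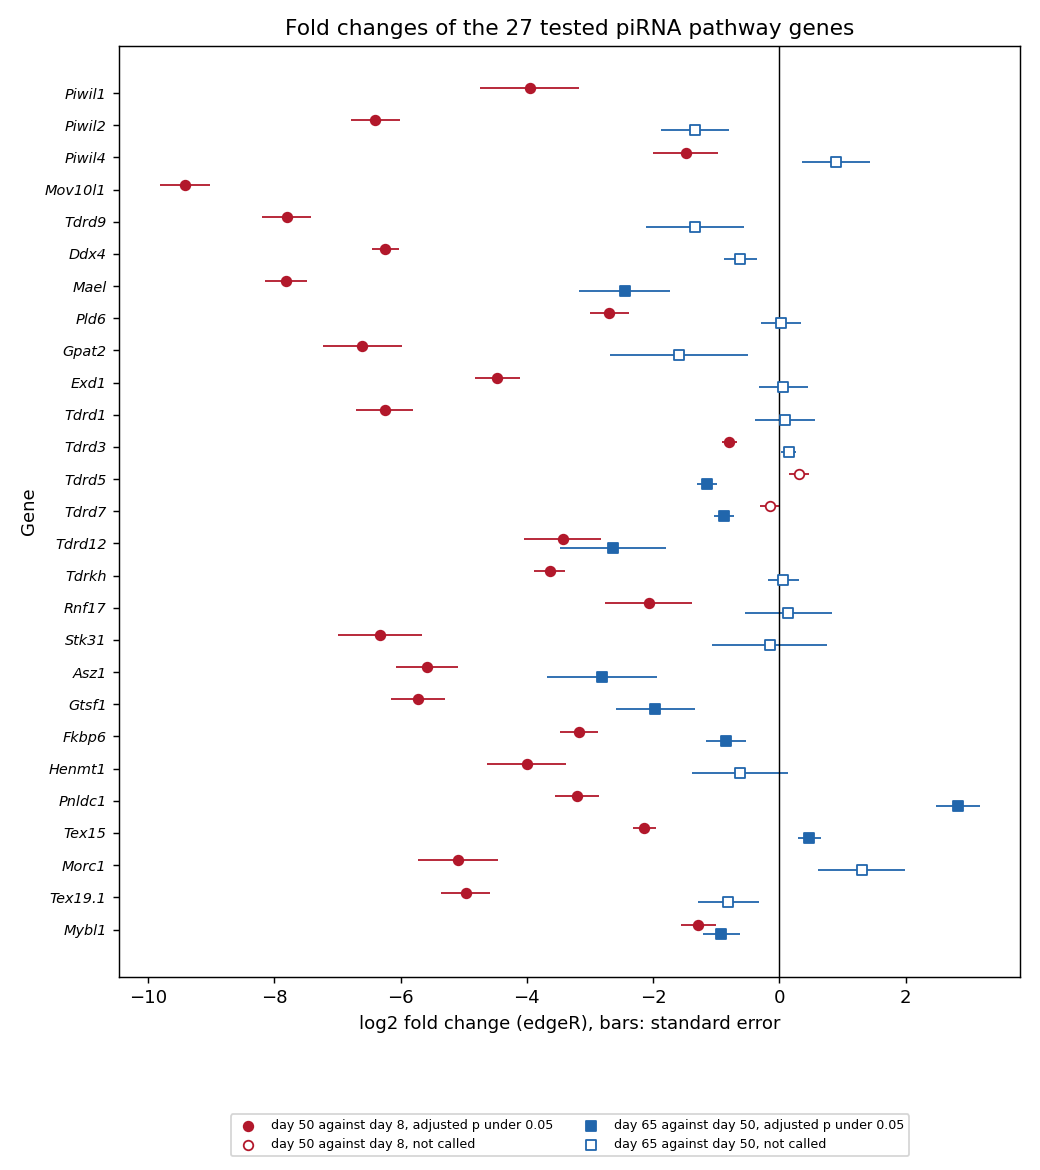
The horizontal axis is the log2 fold change from edgeR with its standard error, circles are day 50 against day 8 and squares day 65 against day 50, and filled symbols have an adjusted p under 0.05. Most circles lie between -9.42 and -1.28, with Tdrd3, Tdrd5 and Tdrd7 near 0, while the squares of Pnldc1 and Tex15 are the filled ones to the right of 0. No square is drawn for Piwil1 and Mov10l1, which had 0 counts at day 65.

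Among the PIWI proteins, Piwil2 was by far the highest in CPM at day 8, at a mean of 95.6 CPM, against 0.881 CPM for Piwil4. Piwil2 (chr14:70372480-70429094), or MILI, the cytoplasmic slicer that binds most piRNAs of mouse oocytes, had 74.7, 100.2 and 112 CPM at day 8, 1.43, 0.836 and 1.12 CPM at day 50 and 0.332, 0.0654 and 0.862 CPM at day 65. The day 8 libraries were far above all others, and the lowest library was day 65 replicate 2. Its fall at day 50 against day 8 was called (log2 fold change -6.40 ± 0.39 (SE), edgeR adjusted p = 2.71e-06). Its next step, at day 65 against day 50, missed the threshold (log2 fold change -1.34 ± 0.54 (SE), edgeR adjusted p = 0.057) and passed it without day 65 replicate 3 (log2 fold change -2.57, edgeR adjusted p = 0.00511) and without day 8 replicate 1 (adjusted p = 0.0458). Over both steps its log2 fold change was -7.73 ± 0.44 (SE), and -8.96 without day 65 replicate 3.

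Piwil1, or MIWI, the PIWI protein of pachytene piRNAs in the mouse testis, had 1.48, 1.05 and 1.97 CPM at day 8, 0, 0.0557 and 0.204 CPM at day 50 and 0 CPM in every library at day 65. It was low at day 8 and had 0 counts at day 65, which is at least 22.4-fold lower at day 65 than at day 8 (3 counts over the 3 libraries, counting error only). At day 50 against day 8 its log2 fold change was -3.95 ± 0.79 (SE, edgeR adjusted p = 0.00435), and -5.39 without day 50 replicate 3, which held 4 of its 5 day 50 counts. Piwil4, or MIWI2, the nuclear PIWI protein that directs DNA methylation in fetal male germ cells, stayed between 0.204 and 1.01 CPM in every library. Piwil4 was called lower at day 50 against day 8 (log2 fold change -1.48 ± 0.52 (SE), edgeR adjusted p = 0.0416), but not without any 1 of the day 8 or day 50 libraries (adjusted p 0.0616 to 0.146). At day 65 the mean of Piwil4 was 0.572 CPM and that of Piwil2 0.420 CPM, on 27 and 20 counts. All 3 PIWI genes were called lower at day 50 against day 8, and of the 3, Piwil2 and Piwil1 at day 65 against day 8. Of all tested genes, 21.4% and 32.6% were lower in these comparisons.

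In both comparisons against day 8, the helicases and precursor factors had the lowest median log2 fold change of the 6 roles. Mov10l1, Tdrd9, Mael and Gpat2 passed the filter only through day 8, so this ranking describes the tested genes and supports nothing more. All 7 tested helicases and precursor factors were lower at day 50 and at day 65 against day 8 (21.4% and 32.6% of all tested genes). The median log2 fold change of the 7 genes was -6.61 at day 50 and -8.19 at day 65 against day 8, in both cases the value of Gpat2. Their summed level was 303 to 385 CPM at day 8, 3.37 to 4.54 CPM at day 50 and 2.32 to 3.28 CPM at day 65. Mov10l1 (chr15:88982909-89055148), the RNA helicase that hands precursors to the mitochondrial nuclease, had 45.7, 75.8 and 80.0 CPM at day 8, 0.114, 0.0557 and 0.102 CPM at day 50 and 0 CPM in every library at day 65. Its 3341 counts at day 8 stood against 5 at day 50 and 0 at day 65, at least 1002-fold lower at day 65 than at day 8. The step at day 65 against day 50 was not called (edgeR adjusted p = 0.0550), but was without day 8 replicate 1 or 3 (adjusted p 0.0269 and 0.0485) and with the replicate block (adjusted p 0.0299). Tdrd9, a helicase with a Tudor domain that works with MIWI2 in the male germline, had 40.9, 59.0 and 63.6 CPM at day 8, 0.343, 0.111 and 0.255 CPM at day 50 and 0.0829, 0 and 0.172 CPM at day 65. Its log2 fold change was -7.81 ± 0.39 (SE) at day 50 against day 8 and -9.14 ± 0.45 at day 65 against day 8, and -10.26 for the last without day 65 replicate 3. Both helicases were lowest at day 8 in replicate 1, and their later libraries were near or at 0.

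Ddx4 (chr13:112598333-112652310), the VASA helicase of germ granules and a general germ cell marker, had 76.8, 78.2 and 97.5 CPM at day 8, 0.858, 1.17 and 1.27 CPM at day 50 and 0.912, 0.589 and 0.690 CPM at day 65. Unlike Mov10l1 it kept a low level at both later ages, and the day 50 and day 65 libraries overlapped. Ddx4 fell at day 50 against day 8 (log2 fold change -6.24 ± 0.21 (SE), edgeR adjusted p = 2.52e-07), and the next step was not called (log2 fold change -0.61 ± 0.27 (SE), edgeR adjusted p = 0.0705). Mael (chr1:166201201-166238747), maelstrom, which acts in precursor processing and transposon silencing, had 102, 76.8 and 96.7 CPM at day 8, 0.4003, 0.279 and 0.510 CPM at day 50 and 0, 0 and 0.172 CPM at day 65. The 3 counts of Mael at day 65 all came from replicate 3. The ratio was 1357-fold lower at day 65 than at day 8, with an exact binomial 95% interval of 464 to 6584. Mael fell at day 50 against day 8 (log2 fold change -7.82 ± 0.33 (SE), edgeR adjusted p = 8.82e-07) and again at day 65 against day 50 (log2 fold change -2.45 ± 0.72 (SE), edgeR adjusted p = 0.0149). The second fall was not called with the libraries of those 2 ages alone (edgeR adjusted p = 0.0644). Without day 65 replicate 3, where the remaining libraries hold 0 counts, the fitted values were -5.73 against day 50 and -13.55 against day 8, which are no bounds.

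Gpat2, a mitochondrial membrane protein needed for primary piRNAs in mouse germ cells, had 14.8, 27.4 and 23.1 CPM at day 8, 0, 0.167 and 0.459 CPM at day 50 and 0, 0.131 and 0.0575 CPM at day 65. It was 332-fold lower at day 65 than at day 8 (3 counts against 1079, 95% interval 113 to 1613). At day 50 against day 8 its log2 fold change was -6.61 ± 0.63 (SE, edgeR adjusted p = 2.95e-05), and -7.89 without day 50 replicate 3. At day 65 it was -8.19 against day 8, and -9.04 without day 65 replicate 2. Exd1, an RNA adaptor that works with Tdrd12 in loading piRNAs, had 14.01, 13.6 and 15.9 CPM at day 8, 0.4003, 0.613 and 0.917 CPM at day 50 and 0.415, 0.654 and 0.920 CPM at day 65. Pld6 (chr11:59783897-59787645), the mitochondrial nuclease that cuts the precursors, had 8.90, 7.28 and 8.72 CPM at day 8, 1.26, 1.56 and 1.02 CPM at day 50 and 0.912, 1.70 and 1.26 CPM at day 65. The day 50 and day 65 libraries of Exd1 and of Pld6 overlapped. Pld6 had the smallest fall of the group at day 50 against day 8 (log2 fold change -2.69 ± 0.31 (SE), edgeR adjusted p = 9.93e-05). Its next step had a log2 fold change of 0.03 ± 0.32 (SE, edgeR adjusted p = 0.951), while on TPM, which divides by length, limma gave -0.62 (adjusted p = 0.0468).

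The Tudor domain scaffolds split into genes that fell to a few CPM or less and 3 that kept at least 12.1 CPM in every library. Of 8 tested, 6 were lower at day 50 against day 8 and 8 at day 65 against day 8 (21.4% and 32.6% of all tested genes). The summed level of the 9 genes was 380 to 446 CPM at day 8, 189 to 244 CPM at day 50 and 118 to 139 CPM at day 65. Tdrd1 (chr19:56826209-56870012), the germ granule scaffold that binds methylated MILI, had 110.0, 155 and 154 CPM at day 8, 1.89, 1.00 and 2.55 CPM at day 50 and 1.41, 0.851 and 3.39 CPM at day 65. Day 8 replicate 1 was the lowest at its age, and the later ages overlapped. Tdrd1 fell at day 50 against day 8 (log2 fold change -6.25 ± 0.45 (SE), edgeR adjusted p = 6.91e-06). Over both steps its log2 fold change was -6.16 ± 0.45 (SE), and -6.97 without day 65 replicate 3.

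Stk31, a germline protein with a Tudor and a kinase-like domain, had 18.7, 16.1 and 19.4 CPM at day 8, 0.229, 0.167 and 0.255 CPM at day 50 and 0, 0 and 0.517 CPM at day 65. Its 9 counts at day 65 were all in replicate 3. Tdrd12, a helicase-like Tudor protein of secondary piRNA production, had 12.8, 5.70 and 9.23 CPM at day 8, 1.03, 0.502 and 1.02 CPM at day 50 and 0, 0 and 0.345 CPM at day 65. Its 6 counts at day 65 were also all in replicate 3. Stk31 and Tdrd12 fell at day 50 against day 8, with log2 fold changes of -6.32 ± 0.66 and -3.43 ± 0.61 (SE). Tdrd12 fell again at day 65 against day 50 (log2 fold change -2.64 ± 0.84 (SE), edgeR adjusted p = 0.0218), but was not called without day 50 replicate 1 or 3 or day 65 replicate 1 or 2 (adjusted p 0.0531 to 0.0595). Without day 65 replicate 3 both genes are at 0 counts at that age, and the fitted values, no bounds, were -4.88 for Stk31 and -6.81 for Tdrd12 against day 50. Against day 8 they were -11.21 for Stk31 and -10.24 for Tdrd12, and with that library -6.48 and -6.07. With all libraries, Stk31 was not called at day 65 against day 50 (log2 fold change -0.15 ± 0.91 (SE), edgeR adjusted p = 0.899), and its log2 fold change was 0.31 and 0.42 without day 65 replicate 1 and 2.

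Tdrkh, the mitochondrial anchor that brings PIWI proteins to the trimming enzyme, had 21.1, 24.9 and 27.96 CPM at day 8, 1.49, 2.06 and 2.34 CPM at day 50 and 1.74, 2.16 and 2.24 CPM at day 65. It fell at day 50 against day 8 (log2 fold change -3.64 ± 0.24 (SE), edgeR adjusted p = 3.35e-06) and was not called at day 65 against day 50 (log2 fold change 0.06 ± 0.25 (SE), edgeR adjusted p = 0.838), where the libraries overlapped. Of its exon bases, 36.7% overlap the opposite-strand gene Oaz3, listed at a mean of 1.02, 0.219 and 0.262 CPM at day 8, 50 and 65, and the sources used here do not say whether counting used strand. Rnf17, a Tudor protein that restrains piRNA amplification in the mouse testis, had 15.1, 11.8 and 18.8 CPM at day 8, 1.54, 3.73 and 5.55 CPM at day 50 and 0.415, 6.81 and 4.60 CPM at day 65. Its libraries differed widely within an age, with day 65 replicate 1 the lowest of all 9. Rnf17 was called lower at day 50 against day 8 (log2 fold change -2.07 ± 0.69 (SE), edgeR adjusted p = 0.0355), but not without any 1 day 8 library or without day 50 replicate 1 or 2 (adjusted p 0.0533 to 0.115). Over both steps its log2 fold change was -1.93 ± 0.69 (SE, edgeR adjusted p = 0.0320). That call was lost without any 1 day 8 library or without day 65 replicate 3 (adjusted p 0.0512 to 0.0882), and the value was -2.54 without day 65 replicate 2.

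Tdrd5, Tdrd7 and Tdrd3 were the scaffolds that kept at least 12.1 CPM in every library, although all 3 were called lower at day 65 against day 8. Tdrd5 (chr1:156255296-156303664), which binds piRNA precursors in the mouse testis, had 108, 114 and 123 CPM at day 8, 121, 173 and 136 CPM at day 50 and 59.3, 72.6 and 61.6 CPM at day 65. All day 65 libraries were below all others, and the day 8 and day 50 libraries overlapped. Tdrd5 averaged 143 ± 27.1 CPM at day 50 and 115 ± 7.60 CPM at day 8 (SD, n = 3 each), a difference that was not called (log2 fold change 0.31 ± 0.16 (SE), edgeR adjusted p = 0.133). It fell to 64.5 ± 7.13 CPM at day 65 (log2 fold change -1.15 ± 0.16 (SE), edgeR adjusted p = 0.000243, against day 50). Tdrd7, a scaffold of germ granules that is also known from the eye lens, had 23.5, 31.5 and 27.8 CPM at day 8, 25.6, 25.02 and 24.2 CPM at day 50 and 12.1, 13.0 and 15.8 CPM at day 65. The day 8 and day 50 libraries overlapped here too, and day 65 was lower in every library. Its fall at day 65 against day 50 (log2 fold change -0.87 ± 0.16 (SE), edgeR adjusted p = 0.00121) held without each library in turn (adjusted p 0.000475 to 0.00734).

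Tdrd3 (chr14:87416639-87545373), a reader of methylated arginine that works with a topoisomerase in many cell types, had 70.2, 59.0 and 65.2 CPM at day 8, 36.4, 38.1 and 38.0 CPM at day 50 and 42.2, 43.1 and 39.3 CPM at day 65. Every day 8 library was above every later one. It fell by less than the other called genes at day 50 against day 8 (log2 fold change -0.79 ± 0.11 (SE), edgeR adjusted p = 0.000412). Its difference at day 65 against day 50 was not called (log2 fold change 0.15 ± 0.11 (SE), edgeR adjusted p = 0.292). Granulosa cell markers moved the other way at day 50 against day 8, with 10 of 11 genes higher (19.5% of all tested genes). Their summed level was 1112 to 1911 CPM at day 8, 13547 to 15885 CPM at day 50 and 6752 to 7862 CPM at day 65. The part of that change in the course of Tdrd5, Tdrd7 and Tdrd3 was not tested.

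**Figure D3:**
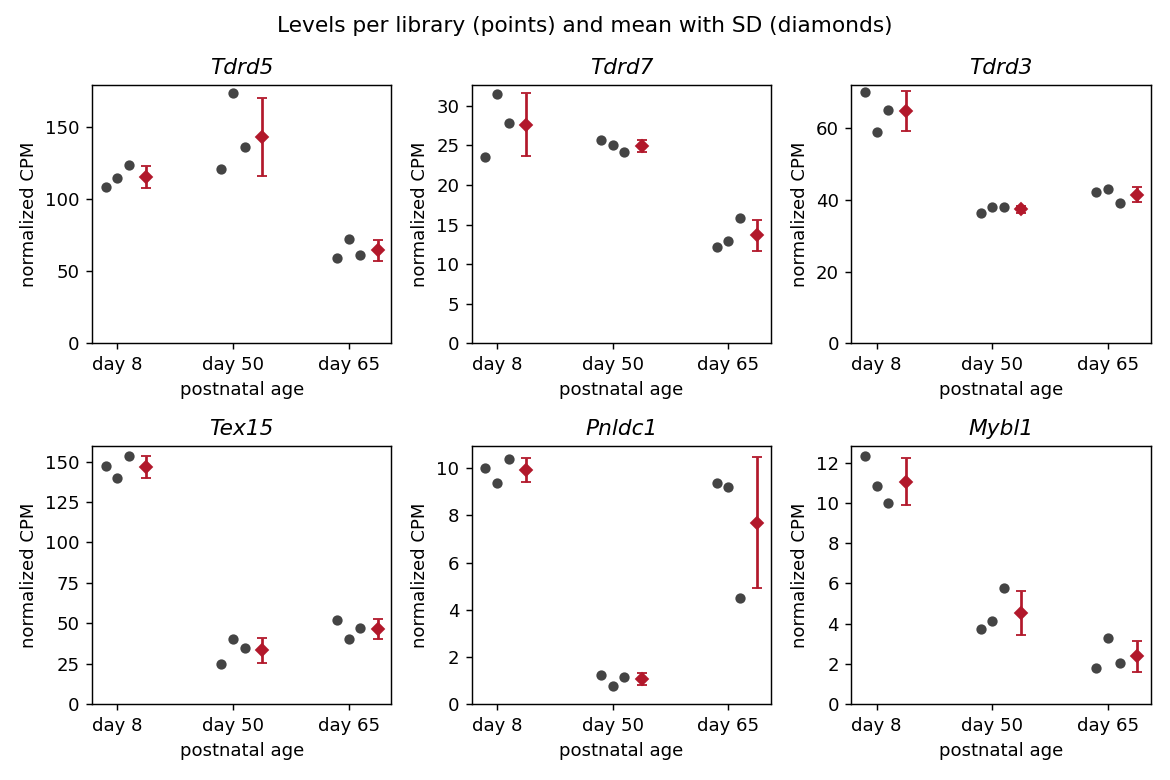
Points are single libraries, diamonds the mean and bars the SD over 3 libraries, in normalized CPM. The 6 genes drawn are among those whose course was not a single large fall, and others, such as Piwil4, are not drawn. Tdrd5 and Tdrd7 overlap between day 8 and day 50 and are lower at day 65. Tdrd3 and Mybl1 fall at day 50 against day 8 by less than the other piRNA genes called at that step. Pnldc1 and Tex15 have a higher mean at day 65 than at day 50.

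The length of the transcripts behind these genes also changed. RSEM gives each gene a length weighted by the abundance of its annotated transcripts. For Tdrd5 this length was 2748, 3395 and 3431 bases at day 8, 1667, 1741 and 1752 bases at day 50 and 2222, 2385 and 2401 bases at day 65. The 3 ages did not overlap, and day 8 replicate 1 was the shortest at its age. The mean at day 50 was 0.539 times that at day 8. In the 9840 genes with several transcripts and at least 50 counts in every library, the 5% to 95% range of this ratio was 0.912 to 1.14, and 0% had a lower ratio than Tdrd5. The annotation (GENCODE M21) holds 2 long coding transcripts of Tdrd5, of 3759 and 3210 bases, a coding one of 618 bases, a retained intron of 3673 bases and a fragment of 268 bases.

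Because TPM divides by that length, the level of Tdrd5 reads differently on the TPM scale. Tdrd5 had 46.5, 65.5 and 66.3 TPM at day 8, 135, 180 and 147 TPM at day 50 and 23.8, 33.9 and 29.2 TPM at day 65. On log2(TPM + 1), Tdrd5 was higher at day 50 against day 8 by 1.37 (limma adjusted p = 0.000439), against 0.31 on counts. On that scale Tdrd5 fell at day 65 against day 50 by a log2 difference of -2.38 (limma adjusted p = 4.62e-06). Of the gene's exon bases, 2.54% overlap the opposite-strand transcript 4930518J20Rik, listed at no more than 0.262 CPM in any library.

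The transcript lengths of Tex15 and Tdrd3 were shorter at day 65 in every library. For Tex15 the length was 4904, 4909 and 5002 bases at day 8, 4801, 4886 and 5120 bases at day 50 and 2688, 3005 and 2877 bases at day 65. For Tdrd3 it was 2700, 2862 and 2835 bases at day 8, 2800, 3077 and 2855 bases at day 50 and 1160, 1569 and 1506 bases at day 65. The day 65 libraries of both genes were below all others. For Tdrd7 it was 1528, 1787 and 3095 bases at day 65, where replicate 3 lay within the day 8 and day 50 range of 3021 to 3687 bases. Over the same genes, the ratio of day 65 to day 8 was 0.578 for Tex15, 0.504 for Tdrd3 and 0.634 for Tdrd7, and the 5% to 95% range was 0.637 to 1.33. Of the 9840 genes, 3.21% had a lower ratio than Tex15, 1.83% than Tdrd3 and 4.87% than Tdrd7. On TPM the difference of Tdrd3 at day 65 against day 8 was not called (log2 difference -0.24, limma adjusted p = 0.383), while on counts it was (log2 fold change -0.64 ± 0.11 (SE), edgeR adjusted p = 0.000742). The share of ribosomal protein genes and the mean transcript length of whole libraries moved with age as well, with a TPM-weighted mean length of 1277, 1774 and 1638 bases at day 8, 1724 to 1824 bases at day 50 and 1145 to 1269 bases at day 65, and their part in these lengths was not tested.

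**Figure D4:**
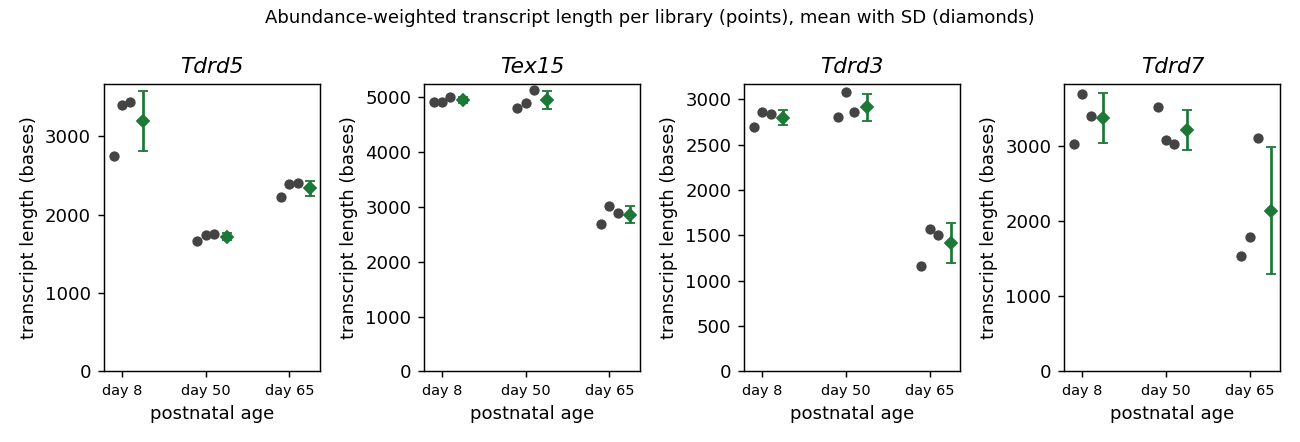
The vertical axis is the abundance-weighted transcript length of a gene in bases, points are libraries, and diamonds with bars are the mean and SD over 3 libraries. Tdrd5 is shortest at day 50, at 1667 to 1752 bases, while Tex15 and Tdrd3 are shortest at day 65.

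The cofactors and end maturation factors all fell at day 50, and 1 of them came back. All 5 tested genes were lower at day 50 against day 8 (21.4% of all tested genes). Gtsf1 (chr15:103402405-103430470), a small zinc finger cofactor of PIWI slicing, had 60.4, 54.0 and 53.8 CPM at day 8, 1.03, 0.892 and 1.22 CPM at day 50 and 0.0829, 0 and 0.632 CPM at day 65. It was the piRNA gene with the highest level per length at day 8, at 125 ± 24.7 TPM (SD, n = 3). Gtsf1 fell at day 50 against day 8 (log2 fold change -5.73 ± 0.43 (SE), edgeR adjusted p = 7.65e-06) and at day 65 against day 50 (log2 fold change -1.96 ± 0.62 (SE), edgeR adjusted p = 0.0213). The second fall was not called without day 50 replicate 3 or day 65 replicate 1 (adjusted p 0.0591 and 0.0620). Day 65 replicate 3 held 11 of its 12 counts at that age, and without that library the log2 fold change at day 65 was -4.58 against day 50 and -10.30 against day 8 (-1.96 and -7.69 with it).

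Asz1, the mitochondrial scaffold GASZ, had 23.1, 13.0 and 16.9 CPM at day 8, 0.229, 0.502 and 0.357 CPM at day 50 and 0.166, 0 and 0 CPM at day 65. Its 2 counts at day 65 came from replicate 1, a ratio 386-fold lower than at day 8 (95% interval 107 to 3193). It fell at day 50 against day 8 (log2 fold change -5.58 ± 0.49 (SE), edgeR adjusted p = 1.78e-05). Its fall at day 65 against day 50 (log2 fold change -2.81 ± 0.88 (SE), edgeR adjusted p = 0.0197) was not called without day 50 replicate 2 or day 65 replicate 2 or 3 (adjusted p 0.0556 to 0.0677), and it was -2.18 without the last of these. Against day 8 the day 65 value was -8.38, and -7.76 without day 65 replicate 3. Without day 65 replicate 1 the remaining libraries hold 0 counts, and the fitted values, no bounds, were -5.66 against day 50 and -11.23 against day 8. Fkbp6, a co-chaperone of PIWI loading, had 24.1, 30.1 and 34.6 CPM at day 8, 2.63, 3.96 and 3.26 CPM at day 50 and 2.40, 0.982 and 2.13 CPM at day 65. Fkbp6 fell at day 50 against day 8 (log2 fold change -3.17 ± 0.30 (SE), edgeR adjusted p = 2.87e-05). The later step of Fkbp6 (log2 fold change -0.84 ± 0.32 (SE), edgeR adjusted p = 0.0434) lost its call without any 1 of replicates 2 and 3, at whichever age (adjusted p 0.0512 to 0.147), with the replicate block (adjusted p = 0.0637) and with the libraries of those 2 ages alone (adjusted p = 0.105).

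Henmt1, which methylates the 3′ end of piRNAs, had 6.15, 5.53 and 6.92 CPM at day 8, 0.343, 0.279 and 0.510 CPM at day 50 and 0, 0.589 and 0.115 CPM at day 65. It was near 0 from day 50 on, with 9 of 11 day 65 counts in replicate 2. Its log2 fold change was -4.00 ± 0.62 (SE) at day 50 against day 8 (edgeR adjusted p = 0.000631). The day 65 value was -4.63 ± 0.67 against day 8, and -6.39 without day 65 replicate 2. Without that library the step at day 65 against day 50 was called as well (-2.38, edgeR adjusted p = 0.0271).

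Pnldc1 (chr17:12888902-12910000), the exonuclease that trims the 3′ ends of piRNAs in mice, had 10.01, 9.37 and 10.4 CPM at day 8, 1.26, 0.780 and 1.17 CPM at day 50 and 9.37, 9.23 and 4.48 CPM at day 65. All day 50 libraries were below all others, while day 65 replicate 1 met the lowest day 8 library at 9.37 CPM and replicate 3 was the lowest at day 65. Its mean was 9.93 ± 0.524 CPM in day 8 libraries, 1.07 ± 0.255 CPM in day 50 libraries and 7.69 ± 2.78 CPM in day 65 libraries (SD, n = 3 each). Pnldc1 fell at day 50 against day 8 (log2 fold change -3.20 ± 0.34 (SE), edgeR adjusted p = 5.77e-05) and rose at day 65 against day 50 (log2 fold change 2.83 ± 0.34 (SE), edgeR adjusted p = 0.000128). The rise was called without each library in turn, with log2 fold changes of 2.67 to 3.11, and on TPM with 1.68 (limma on log2(TPM + 1), adjusted p = 0.00073). The day 65 level did not differ from that of day 8 beyond the threshold (log2 fold change -0.37 ± 0.30 (SE), edgeR adjusted p = 0.303), except with the trend on gene length removed (-0.79, adjusted p = 0.0368). Its weighted length was 983 to 1139 bases at day 65 and 1246 to 1299 bases at day 8, against a longest annotated coding transcript of 2092 bases. An opposite-strand transcript, AL589878.1, overlaps 5.41% of its exon bases.

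The nuclear silencing factors ranged from the piRNA gene with the highest CPM at day 8 to one near 0. Of 3 tested, 3 were lower at day 50 and at day 65 against day 8 (21.4% and 32.6% of all tested genes). Tex15 (chr8:33516738-33585582), a large germ cell protein needed for DNA methylation of transposons in fetal male germ cells, had 147, 140.0 and 153 CPM at day 8, 25.2, 40.2 and 34.7 CPM at day 50 and 52.3, 40.2 and 47.0 CPM at day 65. Every day 8 library was above every later one, and the ranges of day 50 and day 65 met at 40.2 CPM. Tex15 fell at day 50 against day 8 (log2 fold change -2.14 ± 0.18 (SE), edgeR adjusted p = 1.33e-05) and rose at day 65 against day 50 (log2 fold change 0.48 ± 0.17 (SE), edgeR adjusted p = 0.0378). The rise was small and was not called without replicate 3 of any age, or without replicate 1 of day 50 or day 65 (edgeR adjusted p 0.0508 to 0.139), with library size as the only scaling (log2 fold change 0.22, adjusted p = 0.345), or on TPM (adjusted p = 0.157).

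Tex19.1, a repressor of retrotransposons in germ cells and placenta, had 21.7, 13.4 and 20.0 CPM at day 8, 0.458, 0.669 and 0.612 CPM at day 50 and 0.0829, 0.393 and 0.460 CPM at day 65. It fell at day 50 against day 8 (log2 fold change -4.97 ± 0.39 (SE), edgeR adjusted p = 8.75e-06), and RSEM would share reads that it has in common with its paralog Tex19.2. Morc1, a chromatin ATPase of transposon silencing in male germ cells, had 8.90, 7.68 and 11.8 CPM at day 8, 0.172, 0.223 and 0.408 CPM at day 50 and 0.249, 0.262 and 1.44 CPM at day 65. The day 65 value of Morc1 was highest in replicate 3. Morc1 fell at day 50 against day 8 (log2 fold change -5.09 ± 0.64 (SE), edgeR adjusted p = 0.000165), and its log2 fold change at day 65 against day 8 was -3.78 ± 0.58, and -5.17 without day 65 replicate 3. Spocd1, a partner of MIWI2, was not tested and had at most 0.343 CPM in any library. It had 6 counts at day 8, 15 at day 50 and 0 at day 65, so it was not detectable at day 65 at a depth where 3 counts over the group equal 0.0671 CPM.

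Of the regulators, Mybl1 (chr1:9667415-9700209), or A-MYB, the transcription factor of pachytene piRNA clusters in the mouse testis, had 12.3, 10.8 and 10.01 CPM at day 8, 3.72, 4.12 and 5.76 CPM at day 50 and 1.82, 3.27 and 2.07 CPM at day 65. The 3 ages did not overlap. Mybl1 was lower at day 50 against day 8 (log2 fold change -1.28 ± 0.28 (SE), edgeR adjusted p = 0.0044) and at day 65 against day 50 (log2 fold change -0.92 ± 0.29 (SE), edgeR adjusted p = 0.021). The second call was lost without day 50 replicate 3, day 65 replicate 1 or day 65 replicate 3 (edgeR adjusted p 0.0585 to 0.104), and with the trend on gene length removed (-0.36, edgeR adjusted p = 0.291). Nanos2, an RNA-binding protein of male germ cells, had 62 counts at day 8, 10 at day 50 and 1 at day 65, a ratio 57.3-fold lower at day 65 than at day 8 (95% interval 9.90 to 2297). Opposite-strand Gm45058 overlaps 49.0% of its exon bases. Btbd18, a regulator of transcription of piRNA clusters in the mouse testis, stayed at or below 0.563 CPM. Tdrd6, a chromatoid body scaffold of spermatids, had 4, 2 and 5 counts at day 8, 50 and 65, and its 5 counts at day 65 were in replicate 1. Postmeiotic male germ cell markers were near 0 in every library, with a summed level of at most 2.67 CPM, and Tnp1, Tnp2 and Acrv1 were at 0 counts in all 9.

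Set beside Gdf9, an oocyte gene, in the same library, Mael, Ddx4 and Fkbp6 did not keep one ratio over the ages. The other pathway genes are not given relative to Gdf9. Gdf9, an oocyte growth factor, had 278, 349 and 354 TPM at day 8, 37.1, 25.1 and 33.8 TPM at day 50 and 21.9, 22.3 and 35.1 TPM at day 65. The ratio of Mael to Gdf9 (TPM over TPM, a description with no test) was 0.285, 0.285 and 0.334 at day 8, 0.0129, 0.0131 and 0.0186 at day 50 and 0, 0 and 0.00371 at day 65. The ratio of Ddx4 to Gdf9 was 0.108, 0.145 and 0.170 at day 8, 0.0143, 0.0275 and 0.0255 at day 50 and 0.0132, 0.0108 and 0.00798 at day 65. Relative to Gdf9, both genes were lower in every later library than in any day 8 library. Gdf9 had the smallest fall of the 22 oocyte markers at day 65 against day 8, with a log2 fold change of -3.05 against a list median of -6.21, so this ratio depends on the choice of Gdf9. The ratio of Fkbp6 to Gdf9 was 0.0788, 0.129 and 0.139 at day 8, 0.0990, 0.223 and 0.144 at day 50 and 0.0726, 0.0363 and 0.0550 at day 65, so day 8 and day 50 overlapped.

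The separation of Ddx4 by age was lost with another oocyte gene, and Mael is not given relative to that gene by library. Mael had a mean of 98.95, 0.48 and 0.0433 TPM at day 8, 50 and 65. For Zp2 these means were 747.74, 16.75 and 1.71 TPM. In day 65 replicates 1 and 2 Mael was at 0 TPM, so its ratio there is 0 with either gene. Relative to Zp2, a denominator added after the data were seen, Ddx4 was 0.0718, 0.0530 and 0.0693 at day 8, 0.0281, 0.0604 and 0.0430 at day 50 and 2.9, 1.5 and 0.0575 at day 65. Day 50 replicate 2 and all day 65 libraries lay above the lowest day 8 library, and Zp2 itself was at 0.249 and 0.327 CPM in the 2 libraries with the highest ratios. Over the oocyte marker list, 20 of 22 genes were lower at day 50 and 22 at day 65 against day 8 (21.4% and 32.6% of all tested genes). At day 65 against day 50, 9 markers were lower and 2 higher (28.4% and 27.5% of all tested genes). Their median log2 fold changes were -5.18 at day 50 against day 8, -1.88 at day 65 against day 50 and -6.21 at day 65 against day 8. The medians of the tested piRNA genes for the same comparisons were -4.00, -0.81 and -4.63.

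Some genes act with the pathway or beside it without being restricted to germ cells. Of 6 PIWI methylation and chaperone partners, 2 were lower and 0 higher at day 50 against day 8. At day 65 against day 8, 3 were higher and 2 lower, and the median log2 fold changes were 0.16 and 0.44. Beside the counts of this and the following lists, 21.4% of all tested genes were lower and 19.5% higher at day 50 against day 8. At day 65 the shares were 28.4% and 27.5% against day 50, and 32.6% and 29.7% against day 8. Hsp90aa1, the highest of the 6 in CPM, had means of 1052, 547 and 539 CPM at day 8, 50 and 65. It was lower at day 50 against day 8 (log2 fold change -0.94 ± 0.18 (SE), edgeR adjusted p = 0.00186). Prmt5, the enzyme that methylates PIWI proteins on arginine, had 61.5, 81.0 and 80.9 CPM at day 8, 84.0, 85.2 and 79.2 CPM at day 50 and 123, 103 and 99.9 CPM at day 65. Its log2 fold change at day 65 against day 50 was 0.39 (edgeR adjusted p = 0.0374). Of 8 Dicer and Argonaute genes, which serve the other small RNA pathway of oocytes, 4 were lower at day 50 against day 8 and 0 higher, with a median log2 fold change of -0.41. At day 65 against day 50, 3 were lower and 1 higher, and at day 65 against day 8, 6 were lower and 1 higher, with medians of -0.27 and -0.92. Dicer1 had 155, 202 and 181 CPM at day 8, 70.2, 72.9 and 85.5 CPM at day 50 and 76.0, 57.9 and 73.0 CPM at day 65. Its fall at day 50 against day 8 (log2 fold change -1.24 ± 0.16 (SE), edgeR adjusted p = 0.000166) lay between that of Tdrd3 and those of the other 24 called piRNA genes, with no test of the difference.

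Of 10 genes of chromatin silencing of transposons, 4 were lower and 0 higher at day 50 against day 8 (21.4% and 19.5% of all tested genes). At day 65 against day 8, 8 were lower and 2 higher (32.6% and 29.7% of all tested genes). Of 7 repressors of germline genes, 3 were lower and 1 higher at day 50 against day 8, beside the same shares of all genes. At day 65 against day 8, 4 were lower and 2 higher. Max, which binds E-boxes as a partner of MGA, had 52.8, 58.9 and 57.2 CPM at day 8, 93.3, 88.9 and 92.2 CPM at day 50 and 180.2, 144 and 167 CPM at day 65. The 3 ages did not overlap, and Max rose at both steps, by 0.70 and 0.84 on the log2 scale (edgeR adjusted p = 0.00126 and 0.000337). Mga had 119.7, 137 and 119 CPM at day 8, 76.6, 76.4 and 100.3 CPM at day 50 and 42.9, 41.8 and 36.5 CPM at day 65, and it fell at both steps with log2 fold changes of -0.57 and -1.07 (edgeR adjusted p = 0.00994 and 0.000245). The part of these 2 genes in the course of the piRNA genes was not tested.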

How the data were processed

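RNA was measured by RNA-seq of mRNA libraries from 9 mouse ovary samples, grouped by labelled age. Each library has 1 deposited gene table in RSEM's layout, and per the file headers it holds an expected count, TPM and FPKM for each gene, with a length and an effective length in bases. FPKM was not used beyond reading, and the authors' length column gave the weighted transcript lengths. Coordinates are those of GRCm38 (mm10), the build in the labels, from GENCODE M21. The strand setting, the aligner and its version were not given in the sources used here. A repeated symbol occurred in 111 rows, and no library pair was identical.

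Expected counts were rounded and tested in edgeR 4.0.16 (R 4.3.3) with filterByExpr, TMM scaling, a term per age over all 9 libraries and the robust quasi-likelihood fit. P-values were adjusted by Benjamini-Hochberg, and SE is the log2 fold change over the square root of F. The day 50 libraries enter both steps. Alternatives were RLE size factors, library size only, no filter (33390 genes), DESeq2 1.42.0, the 2 ages alone, a replicate block, limma 3.58.1 on log2(TPM + 1) and log2(TPM + 0.1), removal of a gene length trend, and leaving out each library. Same-numbered libraries did not deviate together (correlations -0.0432 to 0.0520).

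Floors are 3 counts over the 3 libraries of an age, and intervals for 1 to 3 counts are exact binomial at 95%. Without molecular identifiers both cover counting error only. Per-library values are given for genes that averaged 10 CPM or more at 1 age, or were called and averaged 1 CPM or more at 1 age, and the other genes are given by range or count. The members, lists and rules were chosen with earlier results of these data known.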

Additional observations from a re-analysis of the deposited data

How the results depend on the processing

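Calls were the same in every alternative for 22 of the 25 piRNA genes called at day 50 against day 8, for 3 of 10 (Tdrd5, Tdrd7 and Pnldc1) at day 65 against day 50, and for 23 of 25 at day 65 against day 8. At day 50 against day 8, limma on log2(TPM + 1) and on log2(TPM + 0.1) each called 1 gene higher (Tdrd5), against 0 in edgeR on counts. At day 65 against day 50 the 8 lower genes became 4 with the 2 ages alone and 13 with limma on log2(TPM + 0.1), and 4 to 10 when 1 library was left out. The 2 higher genes became 1 with library size only, no filter, the replicate block and both limma fits, and 1 to 2 when 1 library was left out. The replicate block, which the check of pairing did not call for, gave 24 lower genes at day 50 against day 8, 8 lower (without Fkbp6 and with Mov10l1) and 1 higher at day 65 against day 50, and 25 lower at day 65 against day 8. The count of all genes called was 6735, 9368 and 10736 with the block, and ran over 5305 to 7852, 8002 to 10771 and 9690 to 11593 for these comparisons when 1 library was left out. The cause of these shifts was not tested.

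Values that changed sign were those of genes with no call in edgeR on all libraries. After the change Pld6 was called lower at day 65 against day 50 in both limma fits. Tdrd7 at day 50 against day 8 was 0.0955 and 0.10 with limma at the larger and the smaller pseudocount. The rest were at day 65 against day 50. With library size only the log2 fold change was -0.22 for Pld6, -0.17 for Exd1, -0.16 for Tdrd1, -0.11 for Tdrd3, -0.18 for Tdrkh and -0.065 for Rnf17. On log2(TPM + 1) it was -0.62 for Pld6 (limma adjusted p = 0.0468), -0.20 for Exd1, -0.26 for Tdrd1 and -0.15 for Tdrkh. On log2(TPM + 0.1) it was -1.08 for Pld6 (limma adjusted p = 0.0266), -0.71 for Exd1, -0.71 for Tdrd1, -0.22 for Tdrkh and -0.10 for Rnf17. Removal of the length trend gave -0.28 for Pld6 and -0.25 for Tdrkh, and no filter gave -0.028 for Pld6. Leaving out 1 library gave -0.21 to 0.21 for Pld6, -0.25 to 0.43 for Exd1, -0.71 to 0.45 for Tdrd1, -0.091 to 0.23 for Tdrkh, -0.47 to 0.65 for Rnf17, -4.88 to 0.42 for Stk31 and -0.079 to 1.76 for Morc1.

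Depth limits the day 65 values most, where 3 counts over the group equal 0.0671 CPM, against 0.0545 CPM at day 50 and 0.0619 CPM at day 8. Most second-step falls of the low genes rest on under 20 counts, in part from 1 library.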

Other observations

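Dazl and Syce2, germ cell genes outside the 31, were also called lower at day 50 against day 8 and higher at day 65 against day 50. Dazl, a germ cell RNA-binding protein, had 45.2, 37.7 and 42.5 CPM at day 8, 3.03, 2.84 and 5.10 CPM at day 50 and 14.1, 18.98 and 12.5 CPM at day 65. Syce2, a part of the synaptonemal complex, had 76.2, 50.5 and 61.6 CPM at day 8, 6.23, 6.35 and 6.06 CPM at day 50 and 22.7, 17.7 and 19.15 CPM at day 65. In both genes every day 65 library lay above every day 50 library and below every day 8 library. At day 65 against day 50 the log2 fold change was 2.05 for Dazl (edgeR adjusted p = 0.000135) and 1.67 for Syce2 (edgeR adjusted p = 7.23e-05). Of 15 tested meiotic prophase genes, 3 were higher and 1 lower at that step, and of 7 tested other germline genes linked to piRNAs, 2 were higher and 0 lower, beside 27.5% of all tested genes called higher, so these counts set neither list apart. At day 65 against day 8 both Dazl and Syce2 were lower, with log2 fold changes of -1.46 and -1.66 (edgeR adjusted p = 0.000346 and 2.41e-05). Both genes were chosen for naming after their values were seen.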
